A study of Mus musculus with 25 samples.

Results

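Laminins are heterotrimers of an alpha, a beta and a gamma chain that Schwann cells secrete into the basal lamina, the sheet of matrix that wraps each axon-Schwann cell unit. Radial sorting and myelination depend on them, and loss of the alpha 2 chain gives a muscular dystrophy with dysmyelination. Schwann cells hold this matrix through beta 1 integrins, through alpha 6 beta 4 integrin, which appears as myelin forms, and through dystroglycan, which joins laminin to a complex with Drp2 and periaxin at the abaxonal membrane. Endothelial, perineurial and mural cells of the nerve also lie on laminin and make several of the same chains.

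The 10 genes described here were taken by name from the 56956 genes of the count table. They are the laminin chains Lama2, Lama4, Lama5, Lamb1, Lamb2 and Lamc1, the integrin subunits Itga6, Itgb4 and Itgb1, and Dag1, which encodes dystroglycan. All 10 were among the 13993 genes that passed the filter on low counts, and the lowest value of any of them in any library was 494 counts. The 25 libraries came from RNA of untreated whole sciatic nerve, with 5 groups of mice sampled once at each of 5 ages (weeks 3, 5, 7, 9 plus 12), and each library pooled 4 to 5 animals of both sexes. C3 mice carry a human transgene on the C57BL/6J background, and WT-C3 are C57BL/6J mice. C22 mice carry a transgene of the same human gene with more copies on the FVB/NRJ background, and WT-C22 are FVB/NRJ mice, so that copy number and strain cannot be told apart between the models. C3-cJunKO mice carry the C3 transgene and lack c-Jun in Schwann cells through P0Cre, a Cre driven by the promoter of myelin protein zero; the labels give no strain for them. No group had a second pool at the same age, so the 5 ages served as replicates (n = 5), and age differences enter each SD and standard error (SE) together with the spread of pools. All library names share the same prefix, which is not stated to mark a batch.

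The counts on genes ran from 2140142 in the C3 library of 9 weeks to 49072746, and from 9001002 upward without that library. Jun stood at 26.3 to 31.7 CPM (counts scaled by library size and normalization factor) in the C3-cJunKO libraries, at 93.8 to 125 CPM in C3 and at 51.3 to 72.4 CPM in WT-C3. The defining markers of Schwann cells were abundant in every library, with a summed level of 14632 to 66768 CPM over 6 genes, and no marker of any of the 10 lists of cell types was at 0 throughout a group. The summed level of 8 skeletal muscle markers ran from 6.13 to 10605 CPM between libraries. In whole nerve, fewer cells of a type and less RNA per cell cannot be told apart.

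On GRCm39 with GENCODE M39, the genes lie on chromosome 10 (Lama2, ENSMUSG00000019899, 26856032 to 27495754; Lama4, ENSMUSG00000019846, 38841141 to 38998403), chromosome 2 (Lama5, ENSMUSG00000015647, 179818166 to 179867712; Itga6, ENSMUSG00000027111, 71575960 to 71689757), chromosome 12 (Lamb1, ENSMUSG00000002900, 31315030 to 31379658), chromosome 9 (Lamb2, ENSMUSG00000052911, 108356935 to 108367729, and Dag1, ENSMUSG00000039952, 108081833 to 108152333), chromosome 1 (Lamc1, ENSMUSG00000026478, 153094597 to 153208774), chromosome 11 (Itgb4, ENSMUSG00000020758, 115865333 to 115899239) and chromosome 8 (Itgb1, ENSMUSG00000025809, 129411876 to 129460618). The counting is not stated to use strand, and some exons overlap genes on the opposite strand. Of the exon bases of Itgb4, 14.9% are shared with Galk1, whose mean level was 26.4 CPM, and of those of Lama5, 0.742% are shared with Adrm1 at 80.2 CPM. The exon overlaps with protein-coding genes were 5.13% for Lama4 with Fam229b and 2.82% for Lamb1 with Dld.

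RefSeq promoter windows of 300 bases on GRCm38.p6, from 250 bases before a start site to 50 after it, were at hand for 6 of the 10 genes, as 7 windows. The windows of Lama5, the laminin chain whose level differed most between the groups, of Lama2 and Lamb1, which declined with age, and of Lamb2, which did not, are printed 5′ to 3′ with matches to searched motifs in capitals. They lie at chr2:180225810-180226109 (minus strand), chr10:27616893-27617192 (minus), chr12:31265043-31265342 (plus) and chr9:108479612-108479911 (plus).
Lama5: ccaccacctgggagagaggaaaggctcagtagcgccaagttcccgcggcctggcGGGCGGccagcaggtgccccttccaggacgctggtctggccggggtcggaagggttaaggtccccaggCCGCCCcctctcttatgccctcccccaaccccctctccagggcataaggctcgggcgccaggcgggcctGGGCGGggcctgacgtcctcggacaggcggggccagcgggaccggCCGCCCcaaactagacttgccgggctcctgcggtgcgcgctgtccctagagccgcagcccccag
Lama2: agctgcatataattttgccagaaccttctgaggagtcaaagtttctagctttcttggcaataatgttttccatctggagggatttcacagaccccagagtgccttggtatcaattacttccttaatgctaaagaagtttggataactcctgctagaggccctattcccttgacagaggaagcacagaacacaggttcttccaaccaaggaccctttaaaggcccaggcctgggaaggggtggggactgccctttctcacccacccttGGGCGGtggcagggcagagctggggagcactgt
Lamb1: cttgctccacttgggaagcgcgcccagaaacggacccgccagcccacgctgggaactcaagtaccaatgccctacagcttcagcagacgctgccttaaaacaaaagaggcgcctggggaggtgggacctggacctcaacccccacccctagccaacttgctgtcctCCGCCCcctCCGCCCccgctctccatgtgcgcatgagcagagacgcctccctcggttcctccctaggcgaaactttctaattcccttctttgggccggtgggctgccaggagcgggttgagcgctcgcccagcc
Lamb2: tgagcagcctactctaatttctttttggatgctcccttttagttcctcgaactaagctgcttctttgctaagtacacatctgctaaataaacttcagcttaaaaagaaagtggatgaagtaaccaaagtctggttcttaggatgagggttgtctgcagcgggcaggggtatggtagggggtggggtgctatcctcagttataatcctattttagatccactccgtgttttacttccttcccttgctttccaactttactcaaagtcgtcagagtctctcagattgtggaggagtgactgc
The motifs searched on both strands were the GC box GGGCGG, the AP-1 site TGANTCA, the SOX site ACAAAG and the TEAD site GGAATG. All matches in these windows were GC boxes, 4 in Lama5, 2 in Lamb1, 1 in Lama2 and 0 in Lamb2. Of 32851 promoter windows of this length, 35.7% held a GC box, 7.81% the AP-1 letters, 18.7% the SOX letters and 14.7% the TEAD letters. The AP-1 letters, to which c-Jun dimers bind, were in none of the 7 windows of these genes, which says only that they are not in these bases. The windows also differed in composition, with 72.7% G and C in Lama5, 63.7% in Lamb1, 50.3% in Lama2 and 44.0% in Lamb2, beside a median of 52.7% over all windows.

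Levels between genes were compared per kilobase (kb) of the Ensembl canonical transcript. Dag1 was the most abundant of the 10, with a mean of 281 CPM per kb over the 25 libraries, and Lama5 the least, with 14.6. Among alpha chains, Lama4 stood at 61.5 CPM per kb and Lama2 at 34.9. Lamb1, the beta chain of the laminins with alpha 2 and alpha 4 in the Schwann cell basal lamina, stood at 183 CPM per kb, Lamb2 at 112 and Lamc1, the common gamma chain, at 103. Of the receptors, Itga6 stood at 197 CPM per kb, Itgb1 at 155 and Itgb4 at 144. Dag1 remained first and Lama5, Lama2 and Lama4 remained last when the union of all exons was used as the length, while Itga6 moved from 2nd to 6th and Itgb1 from 4th to 2nd. The order of the beta chains turned with that length, to 99.2 CPM per kb for Lamb1 and 104 for Lamb2.

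**Figure D1:**
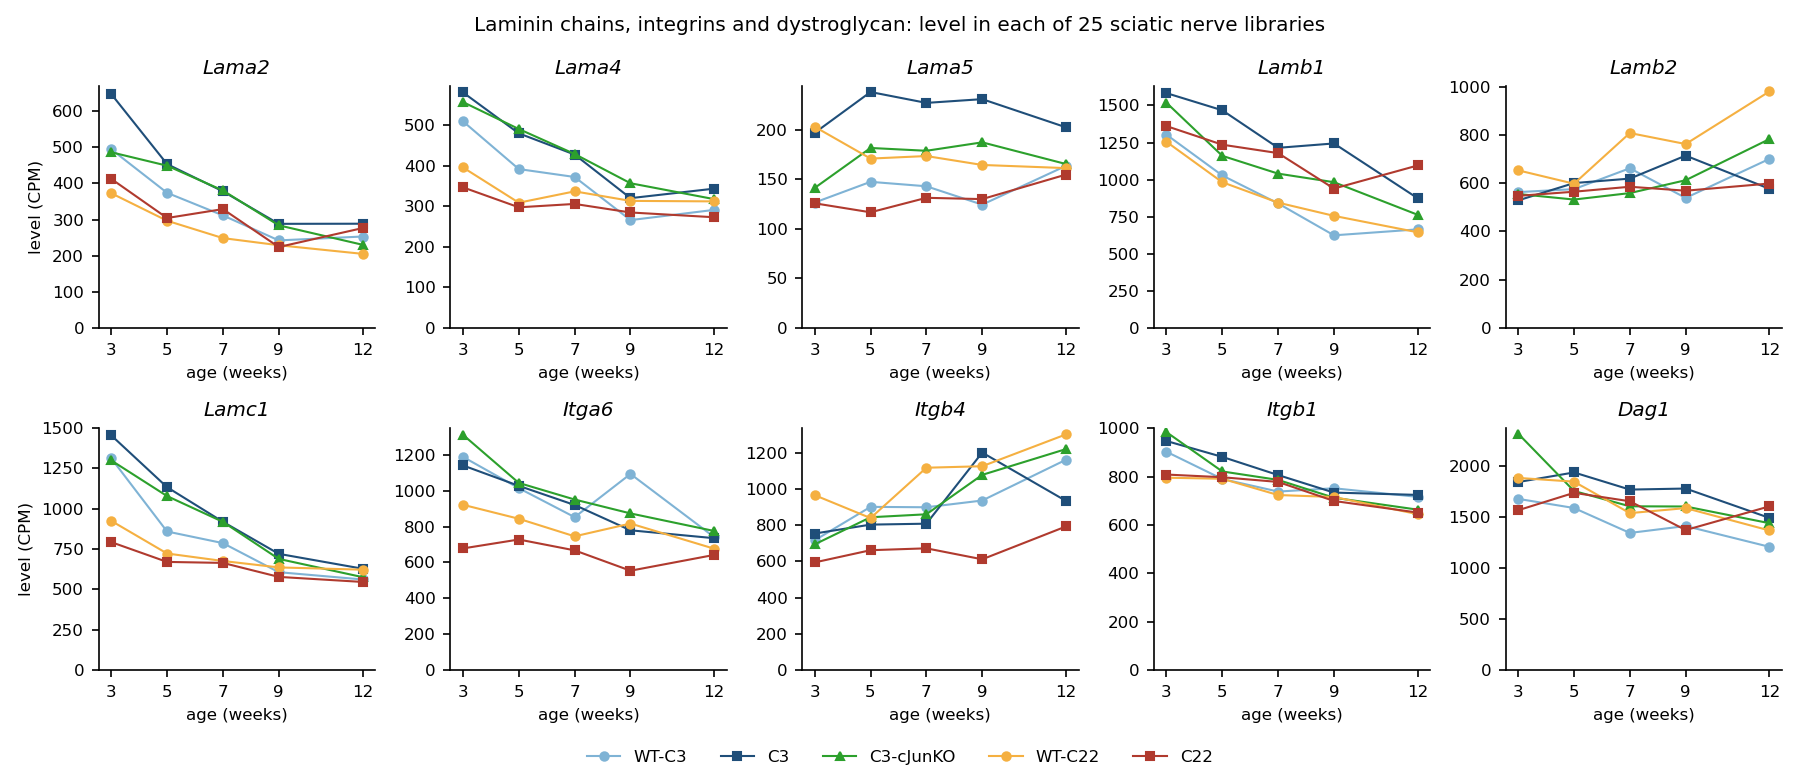
Level of each gene in CPM (vertical axis, from 0) against age in weeks (horizontal axis), with 1 point per library and a line per group. The C3 points of Lama5 lie between 197 and 238 CPM, above all WT-C3 points, and the C22 points of Itgb4 lie between 594 and 793 CPM, below all WT-C22 points.

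Between C3 and WT-C3 the question was which of these genes differ in nerve with the moderate transgene dose. Lama5, the alpha chain of vascular and synaptic laminins, was higher in C3, at 1.55 times its WT-C3 level, while the other 9 genes did not pass the test without an age term. With age as a block, Lama2, Lama4, Lamb1, Lamc1 and Dag1 passed as well, all higher in C3. From 3 to 12 weeks Lama5 stood at 197, 238, 227, 231 and 202 CPM in C3. In WT-C3 it stood at 127, 147, 143, 124 and 163 CPM. Every C3 library was above every WT-C3 library. The means were 219 ± 18.2 CPM and 141 ± 16.1 CPM (SD, n = 5), and the log2 fold change was 0.63 ± 0.09 (SE, edgeR quasi-likelihood adjusted p = 0.000772), between 0.000771 and 0.00346 with each library left out in turn. Adrm1, which shares 0.742% of the exon bases of Lama5, was also higher in C3, with a log2 fold change of 0.31 (edgeR adjusted p = 0.0121). Thus 1 of the 10 genes was higher and 0 lower by edgeR, against 12.5% of all 13993 genes higher and 11.4% lower, and the median log2 fold change of the 10 was 0.23 beside 0.0011 for all genes. At an unadjusted p under 0.05 there were 3 genes, all with a positive fold change, beside 5196 of all 13993 genes of either sign. DESeq2 called those 3.

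Libraries of an age share that age by their labels, and several of these genes differ widely between ages, so the block takes that spread out of the error. With it, 6 of the 10 genes were higher in C3 and 0 lower, against 12.9% of all genes higher and 13.5% lower. The log2 fold changes under the block were 0.63 ± 0.09 for Lama5, 0.54 ± 0.10 for Lamb1, 0.29 ± 0.07 for Dag1, 0.27 ± 0.07 for Lama2, 0.23 ± 0.07 for Lama4 and 0.23 ± 0.07 for Lamc1 (SE). Their adjusted p by edgeR with the block were 0.0014, 0.0061, 0.0193, 0.0204, 0.0311 and 0.0408, in that order.

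Besides Lama5, the genes under an unadjusted p of 0.05 without the block were Lamb1 and Dag1. Lamb1 stood at 1583, 1467, 1214, 1244 and 874 CPM from 3 to 12 weeks in C3 and at 1303, 1028, 839.8, 625 and 665 CPM in WT-C3. It was higher in C3 at 5 of 5 ages, but the ranges of the groups overlapped, since the level at 3 weeks in each group was far above that at 12 weeks. Its log2 fold change was 0.51 ± 0.21 (SE, adjusted p = 0.0953 by edgeR). It passed, at an adjusted p of 0.0393, once the 12-week C3 library was left out, at 0.0254 without the WT-C3 library of 3 weeks and at 0.0482 without all libraries of 3 weeks. For Dag1 the means were 1760.4 ± 166 CPM in C3 and 1443 ± 188 CPM in WT-C3 (SD, n = 5), again higher at 5 of 5 ages, with a log2 fold change of 0.28 ± 0.11 (SE, adjusted p = 0.0784 by edgeR). Without the C3 library of 12 weeks this was 0.0406, and without the WT-C3 library of 3 weeks 0.0452.

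Lama2, Lama4 and Lamc1 had positive log2 fold changes of 0.30, 0.23 and 0.23 and were also higher in C3 at 5 of 5 ages, with edgeR adjusted p without the block of 0.417, 0.42 and 0.553. Lamb2, the beta chain of the laminins of the mature vessel wall and synapse, had a fold change of -0.0065 on the log2 scale with a 95% interval from -0.23 to 0.22. The integrin subunits had log2 fold changes of -0.09 for Itga6, -0.04 for Itgb4 and 0.07 for Itgb1, with intervals from -0.42 to 0.24, from -0.37 to 0.28 and from -0.15 to 0.29.

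Among 15 other basement membrane components, 2 were higher in C3 and 0 lower, with a list median of 0.14. Of all genes, 12.5% were higher and 11.4% lower, so the 2 of 15 lie near the share of all genes. They were Hspg2, which encodes the heparan sulfate proteoglycan perlecan, at 3029 ± 547 against 1568 ± 406 CPM, and Col18a1, a basement membrane collagen, at 402 ± 90.7 against 197 ± 29.5 CPM (SD, n = 5). Their log2 fold changes were 0.95 ± 0.18 and 1.03 ± 0.16 (SE, by edgeR adjusted p = 0.0038 and 0.00108). Of 13 tested partners of the dystroglycan complex, 3 were lower and 0 higher, with a median of -0.02. Drp2, the dystrophin-related protein that binds dystroglycan in Schwann cells, fell by 0.46 ± 0.11 on the log2 scale (edgeR adjusted p = 0.012), and Sgce, epsilon sarcoglycan, fell by 0.50 ± 0.07 (edgeR adjusted p = 0.000944). The third was Sspn, sarcospan.

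Of 15 other integrin subunits, 3 were higher and 2 lower in C3, with a median of -0.17, against 12.5% and 11.4% of all genes. With library sizes as the only scaling 5 were higher and 1 lower, while 71.4% of all genes called were higher in place of 52.1%. Itgb8 rose by 0.94 ± 0.21 and Itga10 by 0.87 ± 0.11 on the log2 scale, while Itga3, another laminin-binding alpha subunit, fell by 0.43 ± 0.08 and Itga1, a collagen receptor subunit, by 0.43 ± 0.11 (SE, by edgeR adjusted p from 0.000381 to 0.0181). Itga7, the laminin receptor subunit that pairs with Itgb1, stood at 367 ± 41.2 against 308 ± 22.7 CPM (SD, n = 5), a log2 fold change of 0.25 (edgeR adjusted p = 0.0612). Of 15 integrin adaptors and signal genes, 5 were higher and 5 lower. Plec, plectin, which ties the cytoplasmic tail of integrin beta 4 to intermediate filaments, rose by 0.85 ± 0.10, and Tln2, talin 2, by 0.44 ± 0.12. Cd151, a tetraspanin bound to laminin-binding integrins, fell by 0.53 ± 0.13, and Rac1, a GTPase of radial sorting, by 0.50 ± 0.09 (SE, by edgeR adjusted p from 0.000179 to 0.0183). Of 6 further laminin receptors only Sdc2, syndecan 2, passed the test, falling by 0.41 ± 0.11 (edgeR adjusted p = 0.0215), and with library sizes as the only scaling none did. By edgeR, 0 of 4 tested laminin chains outside the 10 and 0 of 12 tested enzymes of dystroglycan glycosylation passed. At an unadjusted p under 0.05 there were 1 and 2, beside 5196 of all 13993 genes, and DESeq2 called 1 and 0. With age as a block, 1 of each of these lists passed, the laminin chain lower and the enzyme higher. Of the other basement membrane components 3 were then higher and 1 lower, against 12.9% and 13.5% of all genes.

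In the same comparison all 4 markers of perineurial cells were lower in C3, with summed levels of 404 to 498 CPM against 574 to 860 CPM, as were 2 of 9 endothelial and 3 of 9 pericyte and smooth muscle markers, of which 1 more was higher. Beside the marker counts, 11.4% of all genes were lower and 12.5% higher. The summed level of 8 markers of myelinating Schwann cells was 37430 to 56907 CPM in C3 against 56938 to 100914 CPM in WT-C3, with 2 markers higher and 2 lower, and that of 6 Schwann cell markers 20689 to 31933 against 34225 to 66768 CPM, with 2 higher and 1 lower. Neither sum overlapped between the groups. Of 5 markers of nonmyelinating or dedifferentiated Schwann cells, 4 were higher, with summed levels of 619 to 810.0 CPM against 482 to 584 CPM. Their part in the changes of the laminin and receptor genes was not tested.

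Between C22 and WT-C22 the question was the same at the higher transgene dose. Of the 10 genes, 4 were lower in C22 and 0 higher, namely Itgb4, Lama5, Lamb2 and Itga6, against 20.5% of all genes lower and 21.9% higher, and the median of the 10 was -0.15 beside 0.0046 for all genes. All 4 were lower in C22 at 5 of 5 ages. No others of the 10 reached an unadjusted p under 0.05, which 7041 of all 13993 genes did. Under an age block these 4 passed again and Lamb1 passed as higher, at 0.39 ± 0.10 on the log2 scale (SE, adjusted p = 0.0173 by edgeR), against 22.2% of all genes lower and 21.9% higher.

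Itgb4, the signalling subunit of alpha 6 beta 4 integrin, stood at 594, 661, 672, 611 and 793 CPM from 3 to 12 weeks in C22. In WT-C22 it stood at 965, 839, 1117, 1125 and 1300.5 CPM. All C22 libraries lay below all WT-C22 libraries, and the difference was smallest at 5 weeks. The means were 666 ± 77.8 and 1069 ± 175 CPM (SD, n = 5), and the gene fell by 0.69 ± 0.13 on the log2 scale (SE, adjusted p = 0.0012 by edgeR). Galk1, which shares exon bases with it, went the other way, with a log2 fold change of 0.50 (edgeR adjusted p = 0.0107). Itga6, its partner subunit, stood at 678, 728, 667, 554 and 642 CPM in C22 and at 921, 843, 745, 817 and 676 CPM in WT-C22. Here the groups overlapped, since the WT-C22 library of 12 weeks lay within the C22 range. Itga6 fell by 0.30 ± 0.10 (SE, adjusted p = 0.0362 by edgeR). This call was lost without the C22 libraries of 3, 7, 9 or 12 weeks or the WT-C22 libraries of 3, 5 or 9 weeks, each left out alone, with an adjusted p of at most 0.0718. It was also lost without the filter on low counts, with all 25 libraries in 1 fit and with library sizes as the only scaling, where the adjusted p was highest at 0.26.

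Lama5 stood at 126, 117, 131, 130.0 and 155 CPM in C22 from 3 to 12 weeks. In WT-C22 it stood at 203, 171, 173, 164 and 161 CPM. The groups did not overlap, but came close at 12 weeks. Lama5 fell by 0.41 ± 0.09 on the log2 scale (SE, adjusted p = 0.00288 by edgeR), and Adrm1, with which it shares exon bases, had a log2 fold change of 0.40 (edgeR adjusted p = 0.00795). Lamb2 stood at 547, 565, 585, 569 and 598 CPM in C22 and at 653, 598, 808, 762 and 979.8 CPM in WT-C22. It fell by 0.41 ± 0.12 (SE, adjusted p = 0.0178 by edgeR), and the C22 library of 12 weeks lay just above the WT-C22 library of 5 weeks.

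Lamb1 went the opposite way from Lamb2, with a level higher in C22 at 5 of 5 ages, at 1361, 1235, 1179, 939.8 and 1095 CPM against 1255, 983, 845, 756 and 645 CPM. Its log2 fold change was 0.37 ± 0.17 (SE, adjusted p = 0.101 by edgeR), and the adjusted p was 0.0117 without the WT-C22 library of 3 weeks and 0.0269 without all libraries of 3 weeks. The 95% intervals of the remaining genes ran from -0.21 to 0.59 for Lama2, from -0.35 to 0.05 for Lama4, from -0.43 to 0.14 for Lamc1, from -0.18 to 0.22 for Itgb1 and from -0.30 to 0.19 for Dag1.

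These counts depend on the scaling of the libraries. With library sizes as the only scaling, the median of all genes in C22 moved to 0.17, and 76.0% of the genes called were higher in place of 51.7%. Lama5 and Itgb4 remained lower, by 0.24 and 0.52 on the log2 scale, Lamb1 passed the test as higher, and Lamb2 and Itga6 no longer passed, giving 1 gene higher and 2 lower. Relative to the moved median, the 4 genes lower by the main scaling lay at -0.70 (Itgb4), -0.42 (Lamb2), -0.41 (Lama5) and -0.30 (Itga6).

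**Figure D2:**
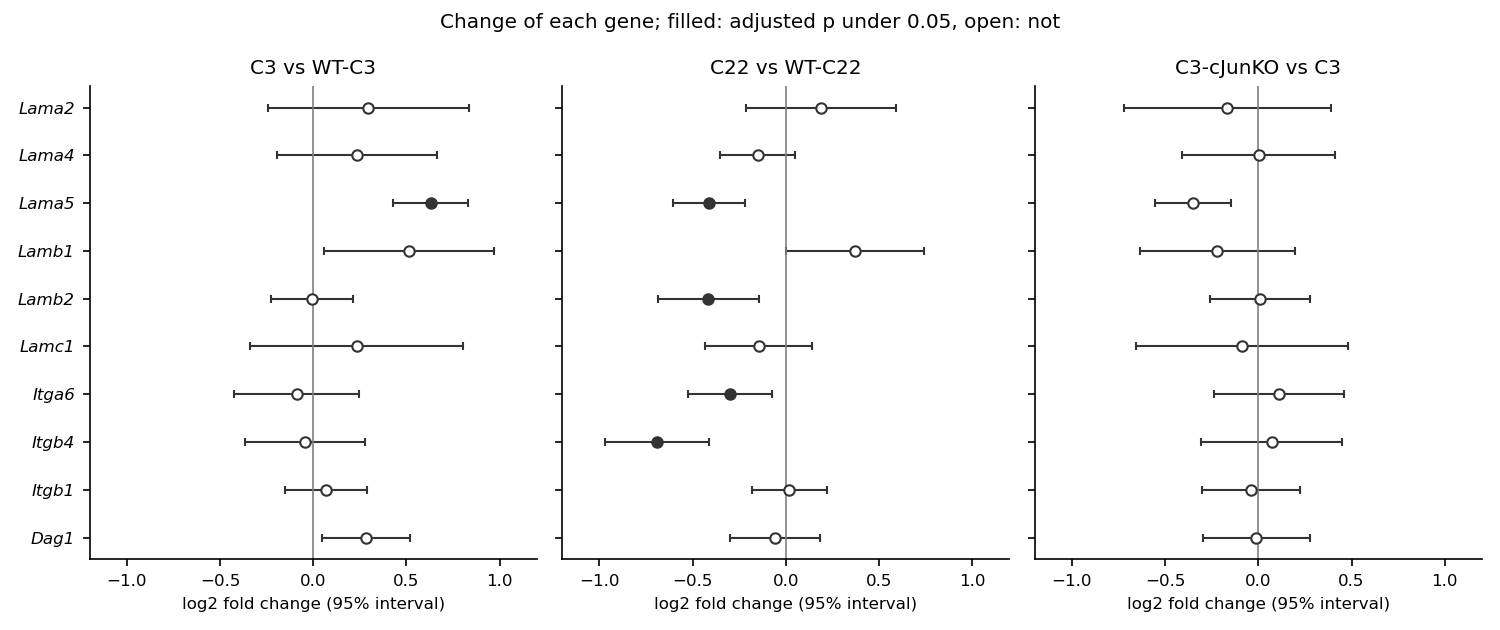
Log2 fold change of each gene (horizontal axis) with its 95% interval for C3 against WT-C3 (left), C22 against WT-C22 (middle) and C3-cJunKO against C3 (right), filled where the edgeR adjusted p was under 0.05. Lama5 is filled on the right in C3 and on the left in C22, and Itgb4, Lamb2 and Itga6 are filled only in C22.

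Around these genes, more listed genes were lower than higher in C22 in each of the 7 lists by the main scaling. Beside these list counts, 20.5% of all genes were lower and 21.9% higher. Of 13 tested dystroglycan complex partners, 8 were lower and 0 higher, with a median of -0.43, and with library sizes as the only scaling 8 were lower and 1 higher. Drp2 fell from 2657 ± 493 to 478 ± 146 CPM (SD, n = 5), by 2.48 ± 0.21 on the log2 scale (SE, adjusted p = 4.62e-06 by edgeR), and Sgcd, delta sarcoglycan, from 9.69 ± 1.18 to 4.22 ± 1.02 CPM. Of 15 other basement membrane components, 1 was higher and 4 lower, and 2 and 4 with library sizes only. Hspg2 rose from 1483 ± 301 to 2820 ± 382 CPM, by 0.92 ± 0.15 (SE, adjusted p = 0.000485 by edgeR). Col4a1, which with Col4a2 makes the common collagen IV of basement membranes, fell by 1.14 ± 0.16 (SE, adjusted p = 0.000167 by edgeR), and Col4a3, a collagen IV chain of low level in nerve, fell by 1.13 ± 0.12 (SE, adjusted p = 2.02e-05 by edgeR).

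Of the other laminin chains, Lamb3 was lower, at 5.76 ± 1.34 against 14.3 ± 6.46 CPM, and so was Lama3, at 4.44 ± 0.873 against 7.51 ± 1.30 CPM (SD, n = 5, adjusted p by edgeR 0.00399 and 0.00272). Of 15 other integrin subunits, 3 were higher and 6 lower. Itgb8 rose by 1.25 ± 0.16 and Itga10 by 0.98 ± 0.18 on the log2 scale, while Itga3 fell by 1.91 ± 0.15 and Itgb5 by 0.80 ± 0.09 (SE, by edgeR adjusted p from 2.3e-06 to 0.00107). Itga7 stood at 263 ± 17.6 CPM in C22 against 307 ± 31.5 CPM in WT-C22 (SD, n = 5) and fell by 0.23 ± 0.08 (SE, adjusted p = 0.0458 by edgeR). Of the integrin adaptors and signal genes, 2 were higher and 8 lower of 15. Pxn, paxillin, rose by 0.50 ± 0.08 and Ptk2, focal adhesion kinase, by 0.37 ± 0.06, and Lims2, a partner of integrin-linked kinase, fell by 1.80 ± 0.11 and Rsu1, of the same complex, by 0.68 ± 0.07. Plec had a log2 fold change of -0.02 (edgeR adjusted p = 0.853) here.

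Of 6 further laminin receptors, 1 was higher and 3 lower. Sdc4, syndecan 4, rose by 0.51 ± 0.09 on the log2 scale. Bcam, the Lutheran receptor of the alpha 5 chain, fell by 0.88 ± 0.16, and Adgrg6, the adhesion G protein-coupled receptor that binds the laminin with alpha 2 and starts myelination, fell by 0.56 ± 0.13 (SE, by edgeR adjusted p from 0.000954 to 0.00403). Of 12 tested enzymes that put on the laminin-binding glycan of dystroglycan, 1 was higher and 3 lower, against 21.9% and 20.5% of all genes. With library sizes only, 5 were higher and 1 lower, so that the direction of this list rests on the scaling. Pomt2, which starts that glycan, fell by 0.33 ± 0.07 on the log2 scale (SE, adjusted p = 0.00363 by edgeR).

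Markers of other cells of the nerve also differed in the same comparison, in which 20.5% of all genes were lower and 21.9% higher. Lower in C22 were 7 of 9 endothelial markers, 6 of 9 pericyte and smooth muscle markers and all 4 perineurial markers, and none of these lists had a marker that was higher. Their summed levels in C22 and WT-C22 ran from 397 to 659.98 against 629 to 839.8 CPM, from 759 to 1378 against 1194 to 2015 CPM and from 294 to 372 against 476 to 715 CPM. Among 8 markers of myelinating Schwann cells, 4 were lower and 1 higher, and their summed level was 24300 to 37132 against 46118 to 94784 CPM. Of 6 Schwann cell markers 3 were higher and 2 lower, with a list median of 0.21. Their summed level was 14632 to 23102 against 25487 to 57569 CPM. Of 5 markers of nonmyelinating or dedifferentiated Schwann cells, 2 were higher and 2 lower, at 470 to 595 against 525 to 693 CPM. Of 8 macrophage markers 1 was higher and 1 lower, and of 8 fibroblast markers 1 was lower. The part of these cells in the lower levels of Itgb4, Lama5, Lamb2 and Itga6 was not tested.

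The difference between the models was tested as the change in C22 minus the change in C3. It passed for 2 of the 10 genes, Lama5 and Itgb4, both negative, against 12.1% of all genes. For Lama5 the difference was -1.06 ± 0.13 (log2, SE, edgeR adjusted p = 1.05e-05), which held without any 1 of the 20 libraries. It was higher than its control in every C3 library pair of an age and lower in every C22 pair. For Itgb4 the difference was -0.67 ± 0.20 (log2, SE, edgeR adjusted p = 0.0333). That call was lost in 12 of 20 fits that each left out a library, with an adjusted p up to 0.076. The libraries concerned were C3 of 9 and 12 weeks, WT-C3 of 3, 5 and 7 weeks, C22 of 3, 5, 7 and 9 weeks and WT-C22 of 7, 9 and 12 weeks. The highest C3 value of Itgb4, 1200.3 CPM, came from the shallow C3 library of 9 weeks. Lamb2 and Dag1 had differences of -0.43 ± 0.16 and -0.36 ± 0.15 (SE, by edgeR adjusted p = 0.0889 and 0.141), and Lamb2 passed without the WT-C22 library of 5 weeks (adjusted p = 0.0473). Under an age block 4 genes passed, against 14.7% of all genes, the additional ones being Lamb2 at -0.42 ± 0.13 and Dag1 at -0.35 ± 0.11 (SE, by edgeR adjusted p = 0.0453 and 0.0419). For Lamb1, which was above its control at every age in both models, the interval of the difference ran from -0.76 to 0.43. Among the other genes named above, the difference was -2.04 ± 0.24 for Drp2, -1.49 ± 0.18 for Itga3, -1.27 ± 0.29 for Col4a1 and -0.49 ± 0.12 for Itga7, all past the threshold, and -0.38 ± 0.17 for Adgrg6, which was not (SE, adjusted p = 0.186 by edgeR).

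The 2 control strains were compared to see how far the baseline differed. Lama5 was higher in WT-C22 than in WT-C3, by 0.31 ± 0.09 (log2, SE, edgeR adjusted p = 0.0329), and was the 1 of 10 genes that passed, against 21.7% of all genes. It was higher at 4 of 5 ages, and at 12 weeks the levels were 161 and 163 CPM. The call was lost without the WT-C3 libraries of 3, 5, 7 or 9 weeks or the WT-C22 libraries of 3, 7 or 9 weeks, each left out alone, with an adjusted p of at most 0.0759. Lamb2 had a log2 fold change of 0.32 ± 0.14 and Itga6 of -0.29 ± 0.13 (SE, by edgeR adjusted p = 0.113 and 0.154), in 1 direction at 5 of 5 ages each. With age as a block 4 genes passed, against 26.6% of all genes, namely Lama5 at 0.31 ± 0.10, Lamb2 at 0.31 ± 0.08, Lama2 at -0.29 ± 0.07 and Itga6 at -0.28 ± 0.07 (SE, by edgeR adjusted p from 0.0154 to 0.0397). In the same comparison 3 of 5 adipocyte markers were higher in WT-C22, with summed levels of 967 to 2858 against 824 to 1605 CPM, 2 of 4 perineurial markers were lower, at 476 to 715 against 574 to 860 CPM, and 2 of 9 pericyte and smooth muscle markers were higher, at 1194 to 2015 against 1378 to 1726 CPM. Of 9 endothelial markers 1 was higher and 1 lower, and 2 of 5 nonmyelinating or dedifferentiated Schwann cell markers were higher. Their part in the differences of these genes was not tested.

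Ordered by their means, the levels of Lama5 were 219 CPM in C3, 175 in WT-C22, 171 in C3-cJunKO, 141 in WT-C3 and 132 in C22. The ranges of neighbours in this order overlapped, C3 and WT-C22 included, since the WT-C22 library of 3 weeks at 203 CPM was above the lowest C3 library. For Itgb4 the order was WT-C22 at 1069 CPM, C3-cJunKO at 939, WT-C3 at 922, C3 at 899.6 and C22 at 666 CPM, and the ranges of neighbours overlapped there too.

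Loss of c-Jun was examined by comparing C3-cJunKO with C3. Jun itself fell by 1.90 ± 0.09 on the log2 scale (SE, adjusted p = 7.29e-07 by edgeR). By edgeR 0 of the 10 genes passed, against 0.55% of all genes. There was 1 gene at an unadjusted p under 0.05, beside 1096 of all 13993, and 1 by DESeq2. Both were Lama5, at 141, 182, 179, 187 and 165 CPM from 3 to 12 weeks, below every C3 library. Its log2 fold change was -0.35 ± 0.09 (SE, adjusted p = 0.206 by edgeR) and lay between -0.48 and -0.29 at the single ages. With age as a block Lama5 passed at -0.36 ± 0.07 (SE, adjusted p = 0.0283 by edgeR), as the only 1 of the 10, against 1.95% of all genes. DESeq2 without the block gave an adjusted p of 0.025.

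For the remaining 9 genes, the 95% intervals show what these libraries could resolve. Lamb1 had -0.22 with an interval from -0.64 to 0.20, and was lower at 5 of 5 ages. Lamc1 was also lower at 5 of 5 ages and Itga6 higher at 5 of 5, with log2 fold changes of -0.09 and 0.11. The narrowest interval, for Itgb1, ran from -0.30 to 0.22. Of 80 tested genes of the 7 surrounding lists 0 passed by edgeR, with 8 at an unadjusted p under 0.05, beside 1096 of all 13993. DESeq2 called Itga10, at a log2 fold change of -0.52 (adjusted p = 0.0291), and with age as a block edgeR called Hspg2, at -0.44 (adjusted p = 0.0248). Among marker lists, Ngfr and Gfap of the dedifferentiated Schwann cell list were lower in C3-cJunKO, and the other lists had no marker past the threshold.

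Against WT-C3, C3-cJunKO had 0 of the 10 genes past the threshold by edgeR, against 21.5% of all genes. There was 1 at an unadjusted p under 0.05, beside 4880 of all 13993, and 1 by DESeq2. Lama5 was closest, at 171 ± 18.4 against 141 ± 16.1 CPM (SD, n = 5) and a log2 fold change of 0.28 ± 0.10 (SE, adjusted p = 0.0678 by edgeR). The adjusted p was 0.019 without the C3-cJunKO library of 3 weeks, 0.0394 without the WT-C3 library of 12 weeks and 0.0397 without all libraries of 3 weeks. Under an age block, Lama5 stayed at 0.28 (adjusted p = 0.0537) and Lamb1 passed at 0.31 ± 0.10 (SE, adjusted p = 0.0412 by edgeR), as the only 1 of the 10, against 24.0% of all genes. The comparisons with C3 and with WT-C3 share the C3-cJunKO libraries.

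By the sign of their slope with age, the genes other than Lama5 split into 2 kinds. Lama2, Lama4, Lamb1, Lamc1, Itga6 and Itgb1 had negative slopes with age in all 5 groups, as did Dag1, while Itgb4 and Lamb2 had positive slopes in all 5. Lama5 had slopes of either sign, none past the threshold. Many slopes of the other genes did not pass either. In C22 none did, and the slope of Dag1 there was -0.0079 ± 0.016 per week (SE). Lamc1 had the steepest slope in C3, WT-C3 and C3-cJunKO, at 1455, 1134, 919, 721 and 629 CPM in C3 from 3 to 12 weeks. In WT-C3 it stood at 1313, 859, 787, 607 and 562 CPM. In WT-C22 it stood at 925, 723, 676, 636 and 622 CPM. The level of the 1 pool at 3 weeks was thus below that of WT-C3, and the levels at 12 weeks were close. Between the control strains Lamc1 did not pass (edgeR adjusted p = 0.54), and a difference of their time courses was not tested. The ratio of 12 to 3 weeks was 0.432 in C3, 0.428 in WT-C3, 0.443 in C3-cJunKO, 0.673 in WT-C22 and 0.689 in C22.

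By a natural spline with 3 degrees of freedom, Lama2 and Lamc1 passed in C3, Lamb1 and Lamc1 in WT-C3, Lama2, Lamb1 and Lamc1 in C3-cJunKO and Lamb1 in WT-C22, against 2.27%, 0.693%, 3.38% and 2.86% of 15298 genes. In C22, 0 of the 10 passed, against 0.752% of genes, with 2 at an unadjusted p under 0.05. A group had 5 libraries for this curve, and with 1 left out the counts ran from 0 to 4 in C3, 0 to 2 in WT-C3, 0 to 1 in C3-cJunKO and 0 to 1 in WT-C22. No gene passed without the library of 3 weeks of any group, nor without that of 12 weeks of WT-C3, C3-cJunKO or WT-C22, and the call of Lamb1 in WT-C22 held only without the library of 7 weeks. A linear slope, with fewer terms, passed for 6 genes in C3, 4 in WT-C3, 8 in C3-cJunKO, 3 in WT-C22 and 0 in C22, against 5.96%, 2.62%, 5.97%, 7.77% and 0.784% of genes.

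Lamc1 changed by -0.136 ± 0.018 per week on the log2 scale in C3, -0.131 ± 0.018 in WT-C3 and -0.131 ± 0.018 in C3-cJunKO (SE, by edgeR adjusted p of the slope 0.000572, 0.000433 and 0.000514), and by -0.0579 ± 0.018 in WT-C22 and -0.0553 ± 0.018 in C22, which did not pass. Lamb1 changed by -0.0899 to -0.115 per week in the 4 groups other than C22 and by -0.0399 ± 0.018 in C22 (slope adjusted p = 0.299). Lama2 fell from 647 to 288 CPM between 3 and 12 weeks in C3, at 647, 453, 378, 288 and 288 CPM, and from 494 to 253 CPM in WT-C3. Itgb4 had its steepest slope in C3-cJunKO, at 694, 843, 859.7, 1077 and 1219 CPM, rising by 0.0935 ± 0.02 per week (SE, by edgeR adjusted p of the slope 0.00895), and Lamb2 rose in WT-C22 by 0.0705 ± 0.018 per week (adjusted p of the slope 0.0229).

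**Figure D3:**
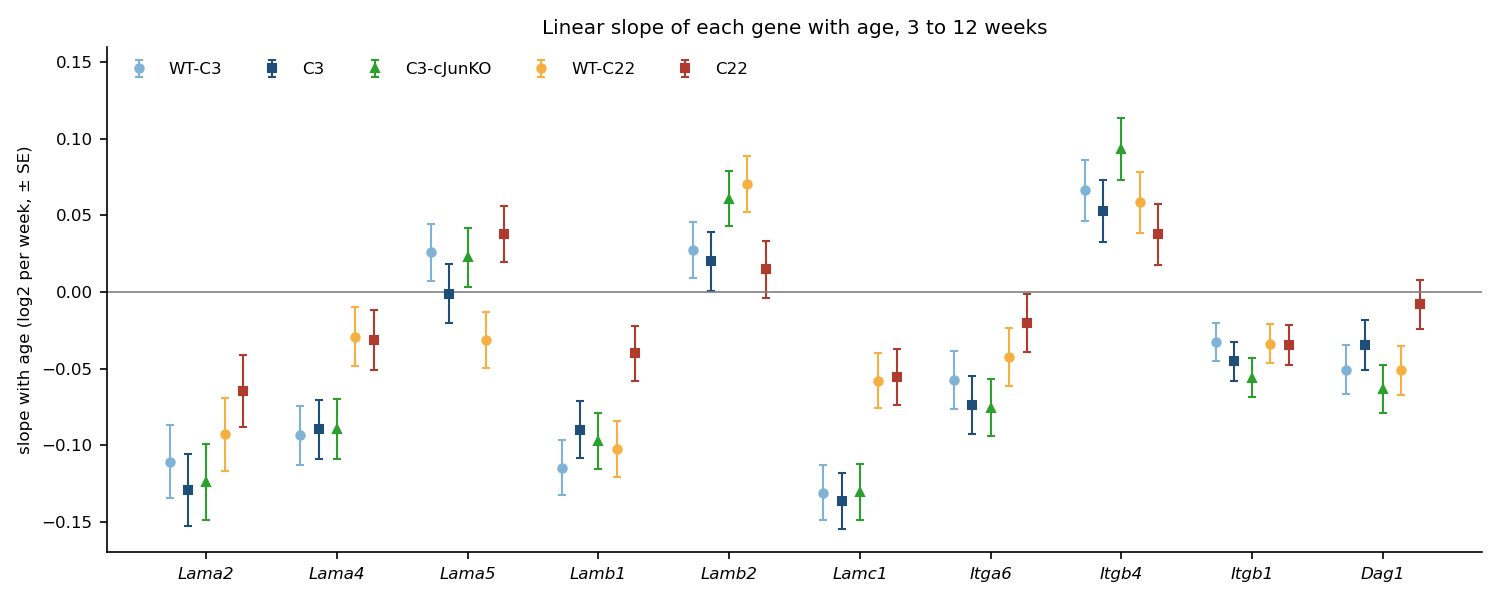
Linear slope of each gene with age in log2 units per week (vertical axis) in each of the 5 groups, with bars of 1 SE. Slopes of Lama2, Lama4, Lamb1, Lamc1, Itga6, Itgb1 and Dag1 lie below 0 in all groups, and those of Lamb2 and Itgb4 above 0.

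A different time course between a model and its control was tested for each gene with the spline. By edgeR 0 of the 10 genes passed for C3, C22 or C3-cJunKO, each against its own comparison group (C3 for C3-cJunKO), against 0.0261%, 0.0523% and 0.0588% of all genes, with 0, 1 and 0 at an unadjusted p under 0.05. The lowest adjusted p of any gene was 0.4. The slope in C22 minus that in WT-C22 was 0.0626 ± 0.025 per week for Lamb1 (SE, by edgeR adjusted p of the slope difference 0.296) and 0.0694 ± 0.026 for Lama5 (0.258), whose slopes were 0.0381 in C22 and -0.0313 in WT-C22, neither past the threshold.

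Of the other basement membrane components, 12 of 15 had negative slopes in C3, and 10 passed the linear test there, 9 of them falling. The count was 7 in WT-C3 with 6 falling, 7 in WT-C22 with 6 falling, 8 in C3-cJunKO with 7 falling and 1 in C22, also falling. Of all genes, 5.96% passed this test in C3, 2.62% in WT-C3, 7.77% in WT-C22, 5.97% in C3-cJunKO and 0.784% in C22. The share of all genes with falling slopes was not examined. The list median was -0.0839 per week in C3, -0.0634 in WT-C3, -0.0697 in WT-C22, -0.0821 in C3-cJunKO and -0.0402 in C22. Of the integrin adaptors and signal genes 0 of 15 passed in any group, with list medians between -0.00639 and 0.00286 per week.

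The chain composition changed with age, as described by shares per kb without a test. Lama4 made up 51.5% to 59.6% of the summed alpha chain level in all libraries. With the union of exons as length it was again the largest, except in the C22 library of 3 weeks, where Lama2 held 41.2% and Lama4 39.3%. The percentages depend on the length used, and those that follow are per canonical transcript unless stated. The share of Lama5 in C3 was 9.55%, 14.1%, 15.3%, 19.6% and 17.0% from 3 to 12 weeks. In WT-C3 it was 7.55%, 11.1%, 11.8%, 13.6% and 16.1%, below C3 at every age. In C22 it was 9.91%, 11.2%, 11.9%, 13.9% and 15.5% and in WT-C22 14.6%, 15.4%, 15.7%, 16.0% and 16.2%, so that the C22 share was lower at every age and closest at 12 weeks. With the union of exons the Lama5 shares were higher throughout, at 19.0%, 27.1%, 29.1%, 35.6% and 31.7% in C3 and at 15.5%, 21.9%, 23.3%, 26.3% and 30.4% in WT-C3. By either length the share of Lama5 was highest at 9 or 12 weeks in all 5 groups.

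Lamb1 held 69.2%, 63.5%, 55.2%, 53.0% and 48.0% of the summed beta chain level in WT-C3 from 3 to 12 weeks, and 65.1%, 61.5%, 50.4%, 49.1% and 39.0% in WT-C22. In C3 the share was 74.4%, 70.4%, 65.6%, 62.9% and 59.6%, and in C22 70.7%, 68.0%, 66.2%, 61.6% and 64.0%. Both models were thus above their control at every age, with the gap at 12 weeks the widest in C22. C3-cJunKO, at 72.7%, 67.9%, 64.4%, 60.9% and 48.7%, lay between C3 and WT-C3 at every age. With the union of exons the Lamb1 share was 56.8%, 50.4%, 41.9%, 39.7% and 35.0% in WT-C3 and 63.0%, 58.1%, 52.7%, 49.7% and 46.3% in C3. Lamb1 held over 50% of the beta chain level in 21 of 25 libraries per canonical transcript and in 13 of 25 per union of exons, so which beta chain was the larger turned with the length. The level of Itgb4 per kb relative to Itgb1 had medians of 0.695 in C22, 0.806 in C3, 0.88 in C3-cJunKO, 0.979 in WT-C3 and 1.24 in WT-C22.

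**Figure D4:**
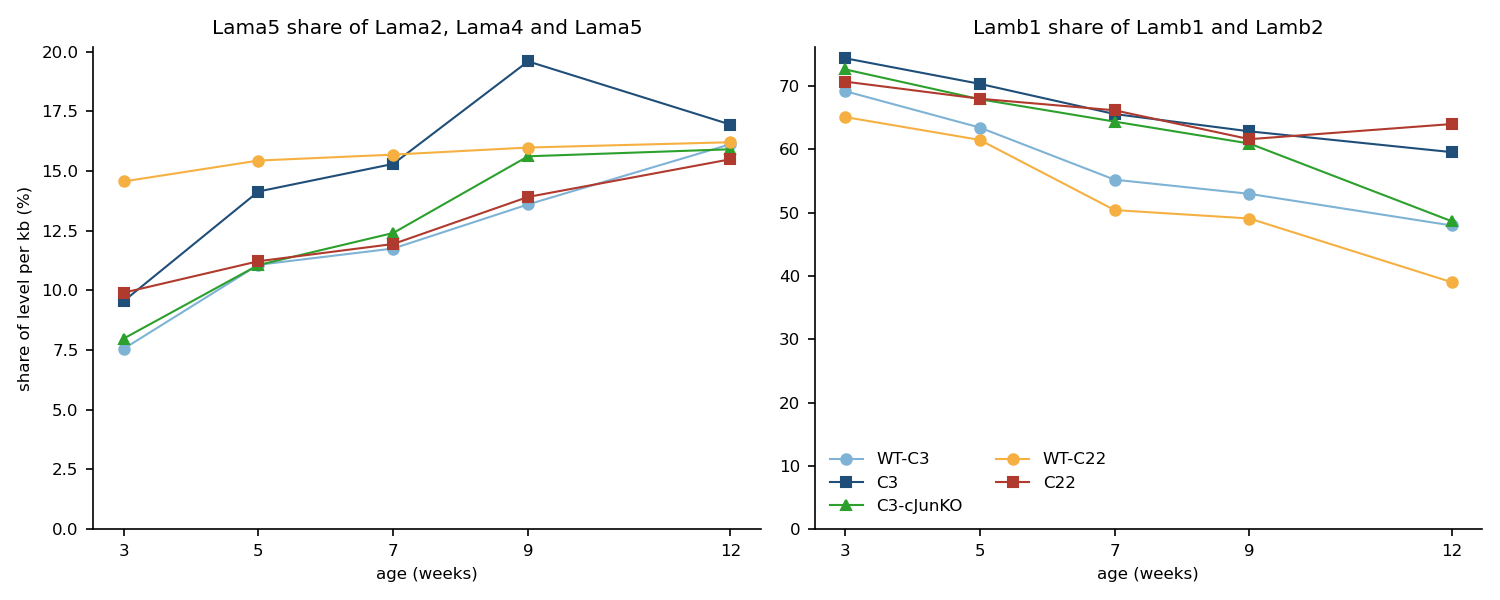
Share of Lama5 in the summed level of Lama2, Lama4 and Lama5 (left) and of Lamb1 in the summed level of Lamb1 and Lamb2 (right), in percent of the level per kb of canonical transcript, against age in weeks, with 1 point per library. The Lama5 share at 3 weeks is 14.6% in WT-C22 and 7.55% to 9.91% elsewhere, and the Lamb1 share at 12 weeks runs from 39.0% in WT-C22 to 64.0% in C22.

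Within groups, once the group means were removed, the declining genes moved together across the 25 libraries. Libraries of the same age share that age, and removing group means leaves the change with age in place. The r values that follow therefore hold the shared slopes with age and are not separate evidence of joint regulation. Pearson's r was 0.971 for Lama4 and Lamc1, 0.958 for Lama2 and Lamc1 and 0.915 for Lama2 and Lamb1. Itgb4 ran against them, with r of -0.872 to Itgb1, -0.823 to Lamc1 and -0.771 to its partner subunit Itga6. Over all 25 libraries without that step, r between Itgb4 and Itga6 was -0.061.

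The genes most like each of the 10 over the 25 libraries by Pearson's r of log2 CPM were Clcn5 (0.947), Cthrc1 and Nrk for Lamc1, Fbn2 (0.937), Col11a1 and Clcn5 for Lama2, Clcn5 (0.886), Adam19 and Armcx4 for Lama4 and Vash1 (0.965), Col5a1 and Adamts20 for Lamb1. For Itgb1 they were Cthrc1 (0.912), Clcn5 and Col11a1, for Itga6 Il1rap (0.941), Capn6 and Usp6nl and for Dag1 Prss12 (0.87), Dctd and Nid2. Itgb4 was most like Abcb1a (0.914), the transporter of the blood-nerve barrier, then Bcam and Sh3rf2. Lamb2 was most like Cntfr (0.902), Adam15 and Ephb4, and Lama5 most like Sptbn5 (0.852), Rab11fip3 and Clcn2. These likenesses hold the shared change with age and differences between groups and are given as a description.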

How the data were processed

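RNA of sciatic nerve was measured in 25 libraries, 1 for each group and age. The authors prepared poly(A) libraries, trimmed and aligned reads with STAR to GRCm39 plus the human transgene locus, collapsed duplicates with UMI-tools, ran HTSeq on Ensembl genes and deposited raw counts. Between 8.12% and 12.1% of fragments lay on no gene. Human genes and some listed genes are not reported here.

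The test was edgeR 4.0.16 (quasi-likelihood, R 4.3.3), with TMM scaling among the compared groups and group as its single term. Genes entered with log2 CPM over 1 in 7 or more libraries (25%), and p-values were adjusted by Benjamini-Hochberg over all of them at 0.05. SEs were derived from the F statistic. Age was a natural spline of 3 degrees of freedom in a fit of all 25 libraries after filterByExpr (15298 genes). Levels per library are CPM scaled by TMM over the 25 libraries. The detection floor was 3 counts. The labels give each library's age, so a fit with age as a block stands beside results whose calls it changes. Deviations of same-age libraries from group means correlated above 0.1 at every age for C3-cJunKO and C3 (r = 0.438, 0.123, 0.347, 0.264 and 0.615 from 3 to 12 weeks) and not in the other comparisons.

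The 10 genes and all lists were chosen with earlier results of these data known. Also named are Jun, Adgrg6, Itga7, up to 2 rises and 2 falls of largest size per list (adjusted p under 0.05, mean CPM of 5 or more) and, for each gene, the 3 with the highest r. Sspn, Lama3, Ngfr, Gfap, overlapping genes and repeats of a name in another comparison were added after values were seen. The alternatives tried were DESeq2 1.42.0, its size factors, library size without TMM, other filters or none, a joint fit of all groups, the age block, a stricter threshold of 0.01 and omission of single libraries, and for age 2 degrees of freedom, the log2 CPM filter and a linear slope. Omission of the 3-week libraries and exon-union lengths were chosen after seeing the data. A simulation of C3 against WT-C3 over 13993 genes used a dispersion, a measure of spread between libraries, of 0.035. In it, 73.5% of 200 changed genes were recovered and 8 unchanged genes called. Recovery was not tested for the 10 genes themselves, several of which differ widely between ages.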

Additional observations from a re-analysis of the deposited data

Results flagged for a closer look

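Among the 10 genes, 2 were flagged because their change differed between the models by a test of the difference itself. For Lama5 the change in C22 minus the change in C3 was -1.06 on the log2 scale (edgeR adjusted p = 1.05e-05). Lama5 was higher than its control at 5 of 5 ages in C3 and lower at 5 of 5 ages in C22. Its control level also differed between the strains, at 175 ± 16.6 CPM in WT-C22 and 141 ± 16.1 CPM in WT-C3 (SD, n = 5), while the transgenic means were 132 ± 14.1 CPM in C22 and 219 ± 18.2 CPM in C3. For Itgb4 the difference was -0.67 on the log2 scale (edgeR adjusted p = 0.0333). Strain and transgene dose cannot be told apart in either. No library stood apart from the other 4 of its group in any of the 50 combinations of a gene and a group examined by Dixon's criterion.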

How the results depend on the processing

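Of 1240 fold changes of the 10 genes under other settings, 0 that passed in either fit changed direction, 41 lost a call and 33 gained one. The 75 that changed sign had main values of at most 0.20 in size. For C3 against WT-C3, the main count of 1 gene became 3 with library sizes only and with DESeq2, 2 without the libraries of 3 weeks and 1 to 3 with each library left out. For C22 against WT-C22, the 4 genes became 2 at a threshold of 0.01, 3 with library sizes only (losing Lamb2 and Itga6 and gaining Lamb1), 3 without a filter and with all libraries in 1 fit (losing Itga6), and 3 to 4 with each library left out. For the difference between the models, the 2 genes became 1 at a threshold of 0.01, with library sizes only, without a filter, with all libraries in 1 fit and without the libraries of 3 weeks, and 1 to 3 with each library left out. For C3-cJunKO against C3, the 0 became 1 with DESeq2 and stayed 0 with each library left out. For C3-cJunKO against WT-C3, the 0 became 1 with library sizes only, all libraries in 1 fit, DESeq2 and without the libraries of 3 weeks, and 0 to 1 with each library left out. For WT-C22 against WT-C3, the 1 became 0 at a threshold of 0.01, with library sizes only and without the libraries of 3 weeks, and 0 to 1 with each library left out. The genes with an age effect became 0 in C3, WT-C3, WT-C22 and C3-cJunKO at a threshold of 0.01, 4, 4, 2 and 5 with 2 degrees of freedom, and 6, 4, 3 and 8 with a linear slope, and ran from 0 to 4, 0 to 2, 0 to 1 and 0 to 1 with each library left out.

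With age as a replicate block, 6 genes passed in C3 against WT-C3, 5 in C22 against WT-C22, 4 in the difference, 1 in C3-cJunKO against C3, 1 in C3-cJunKO against WT-C3 and 4 in WT-C22 against WT-C3. Libraries of an age share that age by their labels, while their deviations from group means over all genes correlated at r as low as -0.224 in the comparisons other than C3-cJunKO against C3. The C3 library of 9 weeks had 2140142 counts, which limits its precision, and 5 libraries limit each spline.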
